A study of Mus musculus with 10 samples.

Results

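The genes that encode the proteasome, its regulators and its assembly factors were followed in long-term hematopoietic stem cells (LT-HSCs) sorted from mouse fetal livers. Members were the gene symbols of the deposited count table that start with Psma, Psmb, Psmc, Psmd, Psme, Psmf or Psmg and a number, which gave 56 of 17404 symbols. Of these, 49 were intact proteasome genes, 5 were processed pseudogenes, and 2, Psmc3ip and Psme3ip1, shared the start of the name but encode partner proteins rather than parts of the particle. The study asked whether LT-HSCs change when macrophages are missing from the fetal liver. All embryos were at E14.5 and carried floxed alleles of Spi1, the gene of the transcription factor PU.1 that macrophages need to form. The KO group (Tnfrsf11aCre; Spi1f/f, n = 6) also carried a Cre driven from Tnfrsf11a, which is active in the precursors of macrophages, and the WT group (Tnfrsf11a+/+; Spi1f/f, n = 4) were littermates without that Cre. The cells measured were thus not the cells in which Cre was meant to act. Each library held a small pool of cells sorted by surface markers, so a change in the mixture of sorted cells and a change of RNA within a cell cannot be told apart.

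The proteasome degrades proteins that have been tagged with ubiquitin. Its 20S core is a barrel of alpha rings, which gate the entrance, and beta rings, which hold the catalytic sites. The 19S cap recognises, unfolds and feeds the substrate, with a ring of ATPases at its base and a lid that removes ubiquitin. Interferon induces other catalytic beta subunits, Psmb8, Psmb9 and Psmb10, which replace Psmb5, Psmb6 and Psmb7 in newly built particles and form the immunoproteasome, a form that is common in blood cells. Hematopoietic stem cells are known for low rates of protein synthesis and for their sensitivity to misfolded proteins.

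Many proteasome genes were lower in KO LT-HSCs, among them 15 of 31 constitutive core and cap subunits (Psma8 left out). By the quasi-likelihood test of edgeR, with p-values adjusted over all genes by the Benjamini-Hochberg method, 23 of the 55 members tested fell at an adjusted p below 0.1, and none rose; of all 16725 genes tested, 2.67% fell and 1.32% rose. The 23 comprised 22 intact genes and Psmc3ip, and their log2 fold changes ran from -1.11 to -0.57. The median log2 fold change of the members was -0.58 against 0.06 over all genes tested, and 51 of the 55 had a negative value. At an unadjusted p below 0.05, 38 members were lower and 0 were higher, where 10.2% and 8.60% of all genes were lower and higher. DESeq2, with the log2 fold-change threshold of 0.1 that the study used, also placed 23 members lower, the same 23 genes, beside 3.29% of all genes. In 22 of the tested members all 6 KO libraries lay below all 4 WT libraries, as they did in 3.48% of all genes, and in 1, Psmb11, all KO libraries lay above all WT libraries, as in 2.88% of all genes. The adjusted p-values of the 23 genes lay between 0.0824 and 0.0996, so no member passed 0.05, and the count of members fell to 0 when any of 6 libraries was left out in turn; in those 6 fits, and at 0.05, no gene of the whole table passed as lower.

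**Figure D1:**
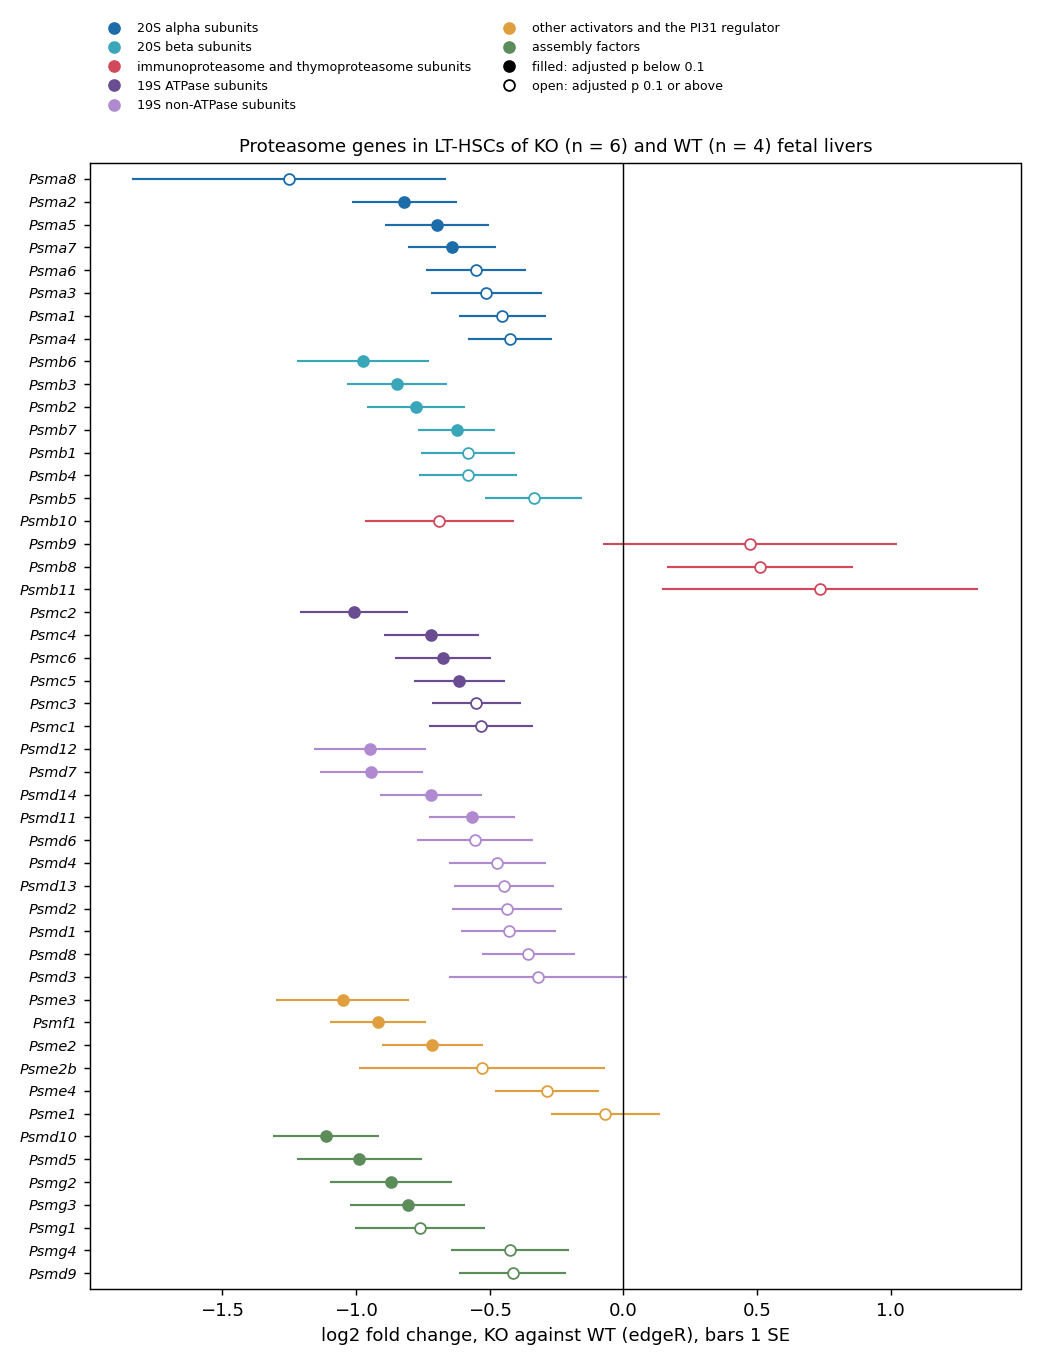
Log2 fold change of each of the 49 intact proteasome genes in KO (n = 6) against WT (n = 4) LT-HSCs, with bars of 1 SE, coloured by role; filled points passed an adjusted p of 0.1. Points lie left of 0 for 46 genes, and the 3 to the right are Psmb8, Psmb9 and Psmb11.

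Total counts ran from 5315435 to 30941726 in KO and from 7633446 to 18256010 in WT libraries, and 14032 to 16350 genes had a count. Members held 0.880% to 1.12% of the counts in KO and 0.929% to 1.597% in WT libraries. Spi1 was detected in every library, at 45.6, 76.3, 9.10, 101, 65.5 and 65.7 CPM (read counts scaled to library size, after TMM normalization) in KO1 to KO6 and at 6.22, 33.8, 50.1 and 7.64 in WT1 to WT4, so it was not lower in the KO libraries (log2 fold change 1.31 ± 0.69 SE, adjusted p = 0.337). Of 8 stem-cell markers, 3 rose: Mecom (1.83 on the log2 scale), Hlf (1.84) and Cd34 (0.93). Their summed level was 519 to 1500 CPM in KO and 378 to 590 CPM in WT libraries, and KO3 held the lowest KO value. The 6 endothelial markers summed to 901 to 6120 CPM in KO libraries. In WT1 they summed to 207 CPM, and in the other WT libraries to 2710 to 3840 CPM. The 7 erythroid markers summed to 1060 to 32500 CPM in KO and 1250 to 82300 CPM in WT libraries. All 7 erythroid markers had negative log2 fold changes (median -1.50) and none passed; Klf1, an erythroid transcription factor, stood at 747, 276, 777 and 62.7 CPM in WT and 63.6 to 211 CPM in KO libraries (-1.99 ± 0.56, adjusted p = 0.101). Of 10 macrophage markers, 8 had negative values (median of all 10, -1.59). Marco fell, being at 0 in every KO library against a mean of 6.88 ± 4.99 CPM (SD, n = 4) in WT. Mrc1, the most abundant, had a mean of 329 CPM in KO and 283 CPM in WT (0.22), and Cd68 was also positive (0.30). The 10 markers summed to 145 to 768 CPM in KO libraries, 46 CPM in WT1 and 502 to 627 CPM in the other WT libraries. Mrc1 alone stood at 65.4 to 714.5 CPM in KO libraries, 3.11 CPM in WT1 and 253 to 489 CPM in the other WT libraries. The sum thus followed mainly this 1 gene and says little about the other macrophage markers. Like the endothelial sum, Mrc1 was highest in KO3 and lowest in WT1. Hepatoblast, granulocyte and megakaryocyte markers overlapped widely between the groups (61.6 to 6060 against 150 to 4200, 10.7 to 997 against 6.07 to 2020, and 157 to 3140 against 159 to 1100 CPM), and none of their genes passed. The part of these other cells in the proteasome values was not tested.

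Promoter windows of RefSeq (build GRCm38.p6, 250 bases before to 50 bases after a start site, 300 bases in all) were available for 43 of the 56 members. They are given here for members the results turn on: the constitutive catalytic subunits Psmb5 and Psmb6 beside their interferon-inducible counterparts Psmb8 and Psmb9, and Psmd10, Psmd12 and Psme3, whose transcripts were among those that fell furthest. Capitals mark matches on either strand to CCAAT, to CCGGAAG (a site of the ETS family of factors) and to TGACNNNGC. TGACNNNGC is the core of the antioxidant response element, through which NFE2L1 raises proteasome genes. Capitals also mark the core of the interferon-stimulated response element and TTCNNNGAA (gamma-activated site). The last 2 letter patterns were added after the values were seen. All are written 5′ to 3′ on the strand of the gene, from chr14:54617946-54618245 (minus strand) for Psmb5, chr17:34197945-34198244 (plus) for Psmb8, chr11:70525107-70525406 (plus) for Psmb6, chr17:34187281-34187580 (minus) for Psmb9, chrX:140956662-140956961 (minus) for Psmd10, chr11:107479278-107479577 (plus) for Psmd12 and chr11:101315963-101316262 (plus) for Psme3.
Psmb5: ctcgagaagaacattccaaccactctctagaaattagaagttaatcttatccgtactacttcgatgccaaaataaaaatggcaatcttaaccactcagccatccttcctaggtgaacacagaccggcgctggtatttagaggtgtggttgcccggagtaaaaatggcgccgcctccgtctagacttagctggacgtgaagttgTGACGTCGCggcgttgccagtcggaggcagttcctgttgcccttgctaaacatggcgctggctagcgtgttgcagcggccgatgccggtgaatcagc
Psmb8: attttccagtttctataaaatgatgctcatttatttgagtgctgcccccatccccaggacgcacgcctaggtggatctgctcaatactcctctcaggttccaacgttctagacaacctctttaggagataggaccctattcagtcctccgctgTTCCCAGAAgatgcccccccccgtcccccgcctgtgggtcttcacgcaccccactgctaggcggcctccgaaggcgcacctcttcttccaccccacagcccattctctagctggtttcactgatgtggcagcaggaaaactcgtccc
Psmb6: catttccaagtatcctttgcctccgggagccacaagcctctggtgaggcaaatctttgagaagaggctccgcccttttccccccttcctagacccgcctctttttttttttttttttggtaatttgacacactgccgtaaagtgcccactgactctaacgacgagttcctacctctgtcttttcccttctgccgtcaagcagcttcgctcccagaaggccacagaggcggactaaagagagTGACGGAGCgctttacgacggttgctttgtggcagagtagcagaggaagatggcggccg
Psmb9: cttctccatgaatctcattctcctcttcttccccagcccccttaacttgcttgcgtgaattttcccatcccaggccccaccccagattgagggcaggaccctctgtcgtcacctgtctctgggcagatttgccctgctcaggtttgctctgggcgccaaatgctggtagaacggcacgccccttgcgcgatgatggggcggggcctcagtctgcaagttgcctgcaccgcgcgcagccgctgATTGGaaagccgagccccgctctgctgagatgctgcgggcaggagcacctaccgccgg
Psmd10: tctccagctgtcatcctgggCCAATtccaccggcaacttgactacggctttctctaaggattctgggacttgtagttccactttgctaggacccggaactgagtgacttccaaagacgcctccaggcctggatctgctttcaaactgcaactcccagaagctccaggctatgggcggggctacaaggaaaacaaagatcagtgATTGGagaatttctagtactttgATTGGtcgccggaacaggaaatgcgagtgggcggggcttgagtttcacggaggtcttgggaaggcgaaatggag
Psmd12: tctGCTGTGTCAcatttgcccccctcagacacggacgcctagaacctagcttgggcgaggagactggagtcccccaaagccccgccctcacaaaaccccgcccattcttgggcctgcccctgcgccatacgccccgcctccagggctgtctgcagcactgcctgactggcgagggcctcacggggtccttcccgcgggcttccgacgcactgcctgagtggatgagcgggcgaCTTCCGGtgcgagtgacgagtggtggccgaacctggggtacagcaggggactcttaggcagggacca
Psme3: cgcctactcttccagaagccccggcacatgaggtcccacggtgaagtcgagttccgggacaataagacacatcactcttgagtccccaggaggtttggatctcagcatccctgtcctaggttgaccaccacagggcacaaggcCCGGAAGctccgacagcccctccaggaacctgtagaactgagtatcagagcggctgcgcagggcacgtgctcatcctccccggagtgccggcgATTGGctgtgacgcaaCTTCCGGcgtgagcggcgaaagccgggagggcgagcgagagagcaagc

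With the start site as base 1, the antioxidant core lay at -47 in Psmb5 (TGACGTCGC) and at -9 in Psmb6 (TGACGGAGC), and in inverted form at -247 in Psmd12. The Psmb8 window held a gamma-activated match at -97 (TTCCCAGAA), and the Psmb9 window an inverted CCAAT at -8. Psmd10 held CCAAT at -230 and in inverted form at -47 and -24. Psme3 held an inverted CCAAT at -14, CCGGAAG at -107 and the inverted CCGGAAG at 3, and Psmd12 held the inverted CCGGAAG at -17. CCGGAAG occurred in 16 of 43 members with a window (37.2%), in 16.3% of the 12845 tested genes with a window and in 9.93% of all 27025 genes with a window. CCAAT occurred in 37.2% of the members and 42.5% of the tested genes, and the antioxidant core in 14% and 16.1%. The interferon-stimulated core was found in 5 members (11.6%) and 3.89% of tested genes, and the gamma-activated pattern in 3 members (6.98%) and 8.45% of tested genes. None of the 4 immunoproteasome and thymoproteasome windows held CCGGAAG or the interferon-stimulated core. With 4 windows and such shares among tested genes, an absence says little. The Psmb8 and Psmb9 windows lie inside the annotated spans of these genes, so the outermost annotated starts were not covered. A match of letters is a description and not evidence that a factor binds.

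In the alpha rings of the 20S core, 3 of 8 genes fell and all 8 had negative log2 fold changes. Psma2 stood at 579, 366, 417 and 714 CPM in the WT libraries and between 266 and 342 CPM, median 278, in the 6 KO libraries. No KO library reached the lowest WT library, and the log2 fold change was -0.82 ± 0.20 (SE, adjusted p = 0.0824, edgeR). Psma7, the most abundant alpha transcript, stood at 915, 618, 581 and 691 CPM in WT and from 396 through a median of 459 to 491 CPM in KO libraries. These groups did not overlap either, and the log2 fold change was -0.64 ± 0.16 (adjusted p = 0.0836). Psma5 was the third that passed, at -0.70. Psma4 had the smallest change of the group, with 358, 317, 291.6 and 389 CPM in WT and 221 to 290.5 CPM, median 249.9, in KO libraries, so that the groups were just apart (log2 fold change -0.42 ± 0.16, adjusted p = 0.177). Psma6, Psma3 and Psma1 had values of -0.55, -0.51 and -0.45 and did not pass. Psma8, the alpha subunit of germ cells, was rare, at 1.42 to 6.38 CPM in KO and 2.14 to 12.6 CPM in WT libraries (-1.25 ± 0.59, adjusted p = 0.275).

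In the beta rings, 4 of 7 constitutive genes fell and all 7 values were negative. Psmb3, a structural subunit, measured 662, 432, 441 and 523.5 CPM in WT and 225 to 377 CPM, median 283, in KO libraries. All KO values lay below all WT values (-0.85 ± 0.19, adjusted p = 0.0824). Psmb6, which carries the caspase-like site, measured 812, 731, 639 and 1364 CPM in WT and 326 to 681 CPM, median 427, in KO libraries. Only KO3, the highest KO library, reached into the WT range, and the log2 fold change was -0.97 ± 0.25 (adjusted p = 0.0836). Psmb7, which carries the trypsin-like site, measured 335, 264, 277 and 330.0 CPM in WT and 181 to 210.1 CPM, median 194, in KO libraries, with no overlap (-0.62 ± 0.14, adjusted p = 0.0824). Psmb5, which carries the chymotrypsin-like site, measured 384, 249, 353 and 266 CPM in WT and 204 to 317 CPM, median 239.6, in KO libraries. Here the groups overlapped and the change of -0.33 ± 0.18 did not pass (adjusted p = 0.348). Of the others Psmb2 passed at -0.78, and Psmb1 and Psmb4 had values of -0.58 each that did not.

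The interferon-inducible catalytic subunits did not share this direction as a group. Psmb8, the counterpart of Psmb5, measured 34.4, 67.8, 65.2 and 91.3 CPM in WT and 33.8 to 122 CPM, median 103, in KO libraries. KO3 was the lowest of all 10 libraries, 4 of the other KO libraries exceeded every WT library, and the log2 fold change of 0.51 ± 0.35 did not pass (adjusted p = 0.457). Psmb9, the counterpart of Psmb6, measured 10.54, 16.15, 20.85 and 35.4 CPM in WT and 4.98 to 47.3 CPM, median 29.7, in KO libraries, with KO3 lowest again (0.47 ± 0.55, adjusted p = 0.696). Psmb10, the counterpart of Psmb7, measured 162, 83.7, 81.1 and 50.4 CPM in WT and 46.1 to 71.2 CPM, median 57.4, in KO libraries. KO3 was the lowest library here too, the groups overlapped through WT4, and the log2 fold change of -0.69 ± 0.28 did not pass (adjusted p = 0.208). Psmb11, the catalytic subunit of thymic epithelium, was at the edge of detection, at 0.986 to 1.15 CPM in WT and 1.41 to 2.44 CPM in KO libraries (0.74 ± 0.59, adjusted p = 0.544). Whether the constitutive and inducible subunits changed differently from each other was not tested. Psmb8 and Psmb9 lie beside each other in the major histocompatibility complex (GRCm38 chr17:34197721-34201454 and chr17:34181987-34187764). Exons of Psmb9 share 212 bases with Tap1 on the opposite strand, which libraries without strand information cannot separate. The same holds for 498 bases that exons of Psmb8 share with Gm20496 and 405 bases that exons of Psmb7 share with Nek6.

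**Figure D2:**
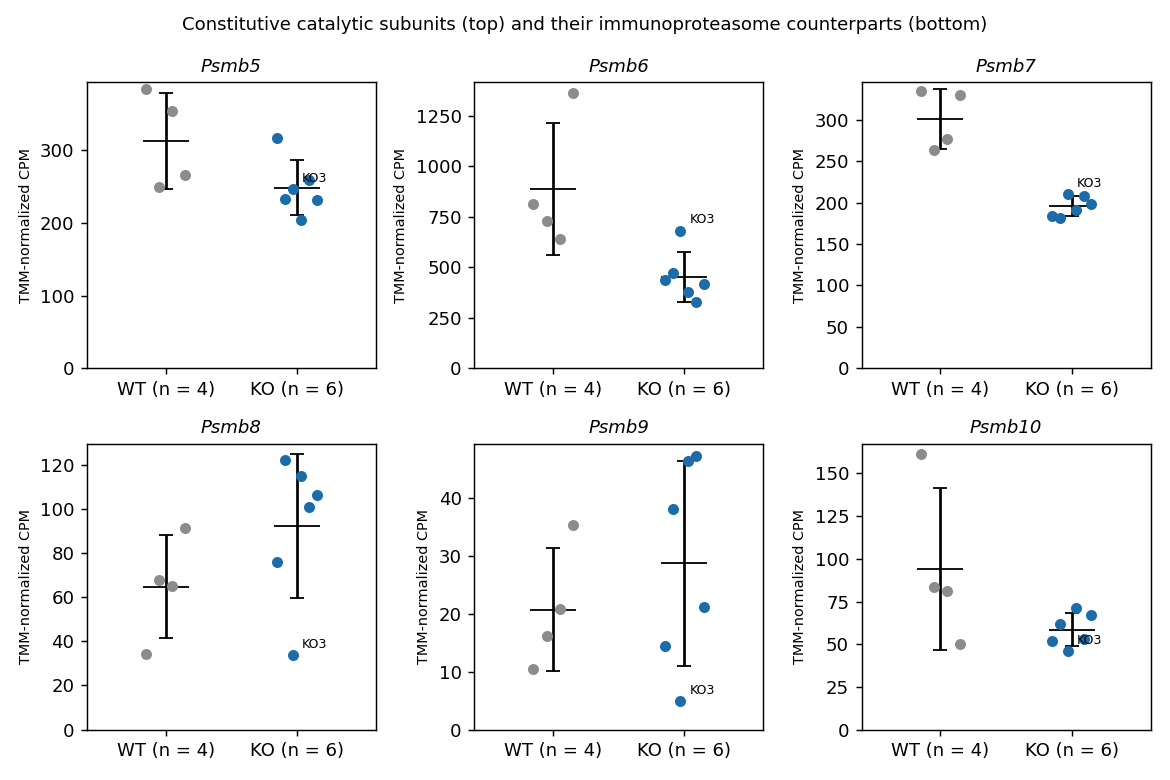
TMM-normalized CPM of the 3 constitutive catalytic subunits (top) and their immunoproteasome counterparts (bottom) in each WT and KO library, with mean and SD; KO3 is labelled. Psmb7 separates the groups fully, Psmb6 all but KO3, and the lower panels overlap, with KO3 at the bottom for Psmb8 and Psmb9.

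Levels between genes were compared in TPM, a share of all transcripts that accounts for transcript length. In WT LT-HSCs Psmb6 was the highest at 998 ± 409 TPM (SD, n = 4), followed by Psma7 at 667 ± 198 TPM and Psmb3 at 594 ± 166 TPM, and these neighbours differed by less than their spread. The constitutive core and 19S subunits other than Psma8 lay between 76.4 TPM (Psmd3) and that of Psmb6. Psmb10 reached 129 ± 82.7 TPM, Psmb8 43.6 ± 17.4 TPM and Psmb9 16.1 ± 10.2 TPM. Of the 48 steps in the order of the 49 genes, 2 exceeded the larger SD of the pair, that from Psmb8 down to Psmb9 and that from Psma8 down to Psmb11, the latter at 0.213 TPM. Together, Psmb8, Psmb9 and Psmb10 made up 15.0%, 11.4%, 11.2% and 7.36% of the TPM of the 6 catalytic subunits in WT1 to WT4, and 12.6%, 17.0%, 6.90%, 20.1%, 17.3% and 16.9% in KO1 to KO6. The ranges overlapped through KO1 and KO3, while 4 KO libraries lay above all WT libraries. Per 100 TPM of Psmb6 there were 0.941 to 2.03 TPM of Psmb9 in WT libraries, and in KO libraries 0.674 in KO3 and 2.40 to 9.53 in the others.

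**Figure D3:**
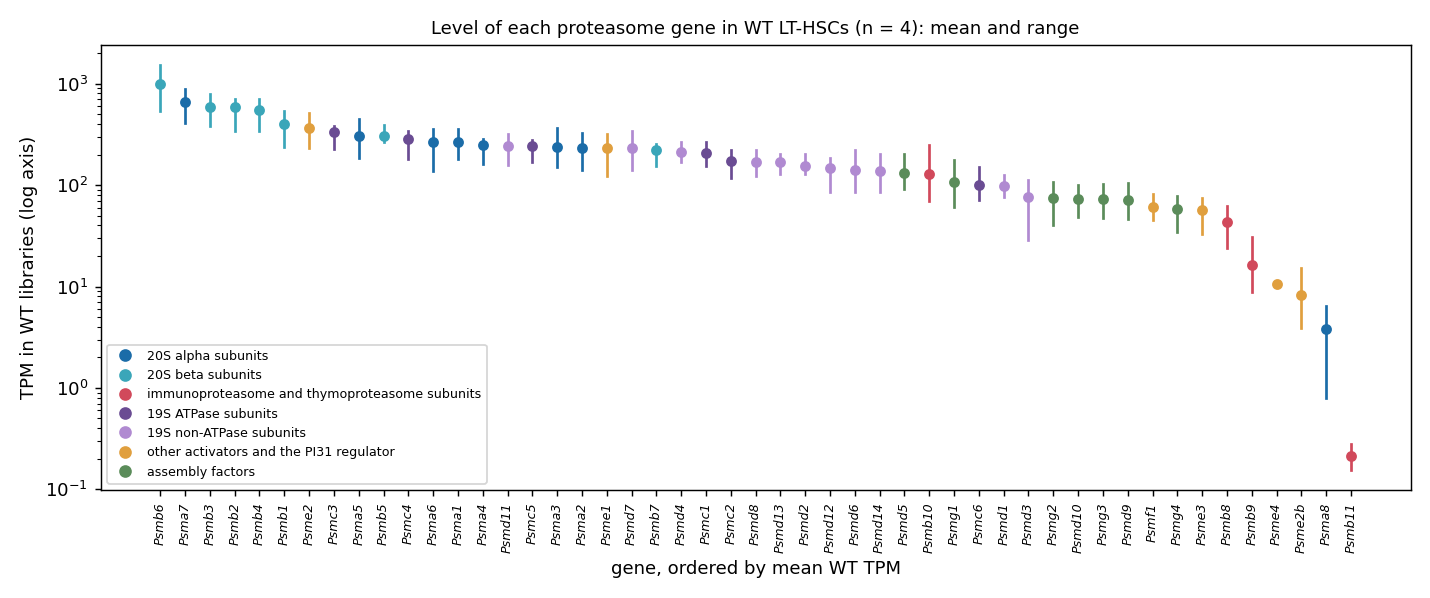
Mean and range of the TPM of each intact proteasome gene over the 4 WT libraries, on a log axis, in order of the mean and coloured by role. Core beta and alpha genes fill the upper end at up to 998 TPM, and Psmb9, Psme4, Psme2b, Psma8 and Psmb11 the lower end.

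In the ATPase ring of the 19S cap, 4 of 6 genes fell and all 6 values were negative. Psmc2 measured 469, 272, 333.5 and 418 CPM in WT and 148 to 248.5 CPM, median 174, in KO libraries. The groups were apart, and the log2 fold change of -1.01 ± 0.20 (adjusted p = 0.0824) was the most negative of any core or cap subunit tested apart from Psma8. Psmc4 measured 532, 408, 405 and 502 CPM in WT and 229 to 375 CPM, median 264, in KO libraries, again with no overlap (-0.72 ± 0.18, adjusted p = 0.0831). Psmc6 and Psmc5 passed at -0.67 and -0.61, and Psmc3 had a value of -0.55 that did not pass. Psmc1 had the smallest change, with 484, 384, 388.5 and 294 CPM in WT and 224 to 387 CPM, median 246, in KO libraries. Its ranges overlapped through KO3, which stood at 387 while the other KO libraries reached at most 260.0 (-0.53 ± 0.20, adjusted p = 0.174).

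Of the 11 non-ATPase subunits of the cap, 4 fell and all values were negative. Psmd7, the partner of the deubiquitinase Psmd14, measured 622, 329, 349 and 419.6 CPM in WT and 196 to 246 CPM, median 226, in KO libraries, without overlap (-0.94 ± 0.19, adjusted p = 0.0824). Psmd12, a scaffold subunit of the lid, measured 337, 219, 214 and 339.8 CPM in WT and 126 to 208 CPM, median 132, in KO libraries, and was likewise apart (-0.95 ± 0.21, adjusted p = 0.0824). Psmd14 itself and Psmd11 passed at -0.72 and -0.57. Psmd6, Psmd4 (a ubiquitin receptor), Psmd13, Psmd2, Psmd1 and Psmd8 ranged from -0.56 to -0.35 and did not pass. Psmd3 had the smallest change, at 282, 199, 246 and 74.2 CPM in WT and 91.6 to 215 CPM, median 163, in KO libraries (-0.32 ± 0.33, adjusted p = 0.654). WT4 was the lowest library of all for Psmd3.

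Among the assembly factors, which bring the rings together and leave the finished particle, 4 of 7 fell. Psmd10 (gankyrin, a chaperone of the ATPase ring) had the smallest p of all members. It measured 133, 88.3, 109.8 and 170.0 CPM in WT and 48.9 to 64.8 CPM, median 57.7, in KO libraries. The highest KO library stayed below the lowest WT library, and the log2 fold change was -1.11 ± 0.20 (adjusted p = 0.0824). Psmd5, another chaperone of the base, measured 331, 189.6, 226 and 141.8 CPM in WT and 80.4 to 141.9 CPM, median 113, in KO libraries, which touched at KO3 and WT4 (-0.99 ± 0.23, adjusted p = 0.0824). Psmg2 and Psmg3, chaperones of the alpha ring, passed at -0.87 and -0.81, whereas their partners Psmg1 and Psmg4 had values of -0.76 and -0.42 that did not pass. Psmd9 measured 136, 87.1, 93.4 and 77.3 CPM in WT and 62.1 to 93.2 CPM, median 71.8, in KO libraries, with overlap (-0.41 ± 0.20, adjusted p = 0.289).

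Among the other activators and regulators, 3 of 6 fell. Psmf1, the PI31 regulator, measured 122, 85.6, 116 and 137 CPM in WT and 48.8 to 70.0 CPM, median 62.2, in KO libraries, with no overlap (-0.92 ± 0.18, adjusted p = 0.0824). Psme3, the nuclear activator, measured 235, 161, 252 and 106 CPM in WT and 74.8 to 129.8 CPM, median 82.9, in KO libraries, and only KO6 reached into the WT range (-1.05 ± 0.25, adjusted p = 0.0824). Psme1 and Psme2 encode the interferon-inducible activator together. Psme2 passed at -0.71, while Psme1 measured 209, 157, 134.5 and 224 CPM in WT and 125 to 199 CPM, median 184, in KO libraries, overlapped widely and did not pass (-0.07 ± 0.20, adjusted p = 0.892). Psme4 and Psme2b, a copy of Psme2 that may share its reads, had values of -0.29 and -0.53 and did not pass.

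The partner genes and pseudogenes were kept apart. Psmc3ip, which acts in meiotic recombination, measured 86.2, 57.4, 49.9 and 85.2 CPM in WT and 24.9 to 51.4 CPM, median 29.4, in KO libraries. It fell (-1.09 ± 0.26, adjusted p = 0.0824) with an overlap at KO3 only, and its exons share 385 bases with Mlx on the opposite strand. Psme3ip1, a partner of Psme3, measured 112, 96.8, 78.8 and 90.9 CPM in WT and 62.9 to 76.0 CPM, median 69.4, in KO libraries; it did not pass (-0.45 ± 0.16, adjusted p = 0.165). No pseudogene exceeded 0.961 CPM in any library, and none of the 4 tested passed. Psmb5.ps was at 0.961 CPM in WT3 and 0.108 CPM in KO3 and had no count in the other libraries, and Psmb6.ps was at 0.142 CPM in WT4 and at most 0.683 CPM in KO libraries. Pseudogenes can take reads from their parent genes, so these levels are uncertain.

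The libraries differed in how far the constitutive genes departed from their mean over all 10 libraries. The summary used 31 core and cap subunits, Psma8 left out. It was drawn from the same values as the fold changes, so it describes them by library and adds no separate test. No share of all genes stands beside these counts. In WT libraries 30, 27, 30 and 25 of the 31 lay above their mean, and the median departure was 0.67, 0.17, 0.22 and 0.46 on the log2 scale. In KO1, KO2, KO4, KO5 and KO6 between 0 and 5 of the 31 lay above it, with medians from -0.40 to -0.21. KO3 differed from the other KO libraries, with 19 of 31 above and a median of 0.06, and for Psmb8, Psmb9 and Psmb10 it was the lowest library of all. Without KO3, 26 members were lower, beside 3.6% of all genes, and the median log2 fold change was -0.65. WT1 had the highest constitutive values and also the lowest endothelial sum of all libraries (207 CPM). Whether these go together was not tested. Without WT1 the median log2 fold change was -0.47 and no gene passed. At an unadjusted p below 0.05, 32 members and 7.93% of all genes were lower.

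**Figure D4:**
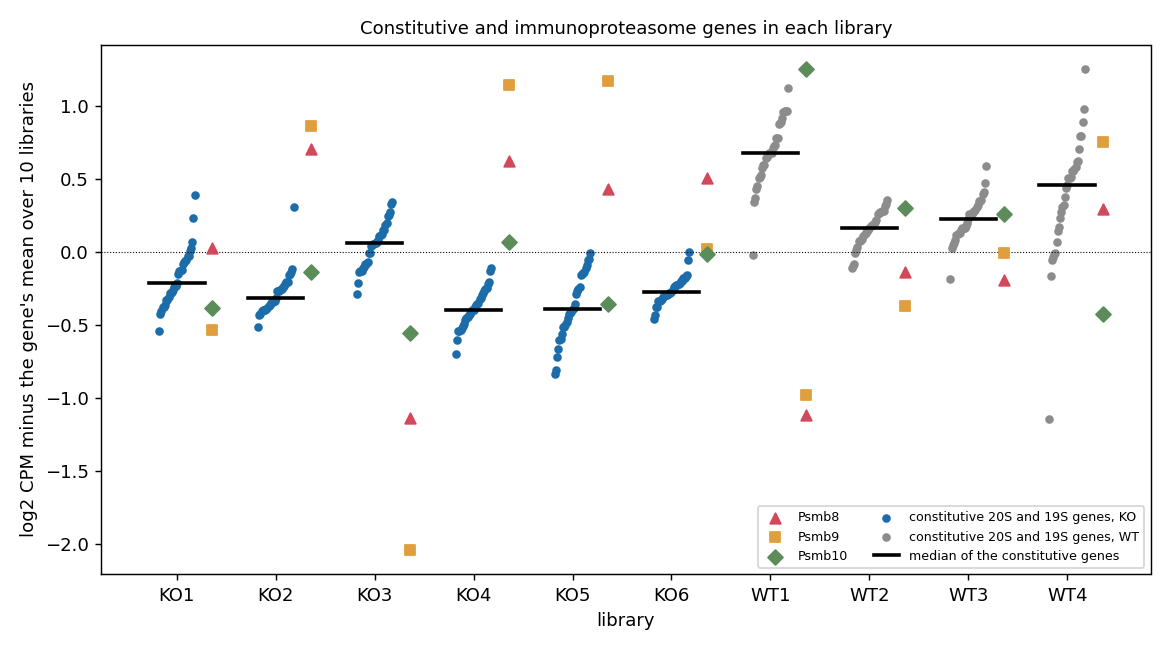
Departure of each of 31 constitutive core and cap genes from its mean over 10 libraries (log2 CPM, points) with the median (bar), and of Psmb8, Psmb9 and Psmb10, in each library. KO3 sits at 0.06, between the other KO libraries (-0.40 to -0.21) and the WT libraries (0.17 to 0.67).

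Genes around the proteasome were read from lists of related functions. Of 11 further proteasome parts and partners 8 had negative values and 1 fell, Uchl5, a deubiquitinase of the cap, at 198 ± 21.8 CPM (SD, n = 6) in KO against 398 ± 199 CPM (SD, n = 4) in WT (-1.01 ± 0.25, adjusted p = 0.0836). Pithd1 had a value of -0.996 (adjusted p = 0.135). Ubb, a polyubiquitin gene, had a value of -0.68 and did not pass (adjusted p = 0.117). Of 12 ubiquitin receptors and partners of the segregase p97 none passed by edgeR, and at an unadjusted p below 0.05 there were 3 lower and 2 higher. Faf1 had a value of -0.89 (adjusted p = 0.112), and Ddi1 had no count in WT and a mean of 0.575 CPM in KO libraries. Of 8 genes of the NFE2L1 route, which raises proteasome genes when degradation is short, none passed by edgeR and none had an unadjusted p below 0.05. Nfe2l1 itself was at 53.7 ± 9.27 CPM in KO and 39.5 ± 8.47 CPM in WT (0.44 ± 0.21, adjusted p = 0.285), and Maff and the rare Nfe2l3 had values of 0.74 and 2.47. Of 9 genes of interferon signalling and antigen processing, 2 rose. Irf1, which activates immunoproteasome genes, was at 77.6 ± 40.1 CPM in KO and 24.3 ± 3.86 CPM in WT (1.68 ± 0.36, adjusted p = 0.0824), and Nlrc5, an activator of major histocompatibility genes, was at 3.12 ± 2.29 and 0.217 ± 0.192 CPM (3.73 ± 1.02, adjusted p = 0.0913). Tap1 and Tap2, the peptide transporters encoded beside Psmb8 and Psmb9, had values of 0.55 and 0.53 and did not pass.

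Transcript length, taken as the plain mean over all annotated transcripts of a symbol, moved with the groups. This mean can differ from the length of the RNA that was expressed. The rank correlation between a gene's length and its departure from its mean was positive in every KO library (0.065 to 0.1502) and negative in every WT library (-0.160 to -0.085), and across genes the log2 fold change rose with length (Spearman's rho 0.221 over 16549 genes, which share libraries and are not independent). By this mean length, 42 of the 49 intact genes lay under the median of 1858 bases of all genes tested. With an offset that removed the length trend (rho 0.026), 12 members were lower beside 2.8% of all genes, while 0.287% of all genes were higher. At an unadjusted p below 0.05, 33 members and 13.9% of all genes were lower, and the median was -0.60 against -0.15 over all genes. Within the 49 genes rho between length and log2 fold change was -0.10. Xist, which is expressed from the inactive X chromosome of female cells, also differed. Its log2 CPM was 1.28 to 1.88 in 4 KO libraries but 8.75 and 8.48 in KO2 and KO3. In WT libraries it was 6.32 to 7.17. Embryo sex was not among the labels used, and a difference in sex between the groups could not be fully told apart from genotype. With Xist as a covariate no gene of the whole table passed by edgeR (smallest adjusted p = 0.251); at an unadjusted p below 0.05, 32 members were lower beside 9.26% of all genes, and the median of the members was -0.56. In the 2 KO and 4 WT libraries with high Xist alone the median was -0.55 against -0.05 over all genes, 50 of 53 members had negative values, and no gene of the whole table passed, with 7 members and 2.94% of all genes lower at an unadjusted p below 0.05. The scale and its normalization between libraries mattered too. On plain TPM the median of all genes was 0.27 and that of the members -0.14, a distance of -0.41. The distance on the CPM scale was -0.64. On TPM rescaled by TMM, a fit chosen after seeing the data, these medians were 0.07 and -0.54, a distance of -0.60. In that fit 38 members and 8.79% of all genes were lower at an unadjusted p below 0.05 by limma. On plain TPM 0 members passed by limma, where 11 of all genes were lower and 467 higher. At an unadjusted p below 0.05 by limma, 4 of 54 members were lower and 2 higher. Of all 16549 genes, 154 (0.931%) were lower and 3271 higher at that level. The part of length, of Xist, of scale and of normalization in the fall of the proteasome genes was not tested beyond these fits.

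**Figure D5:**
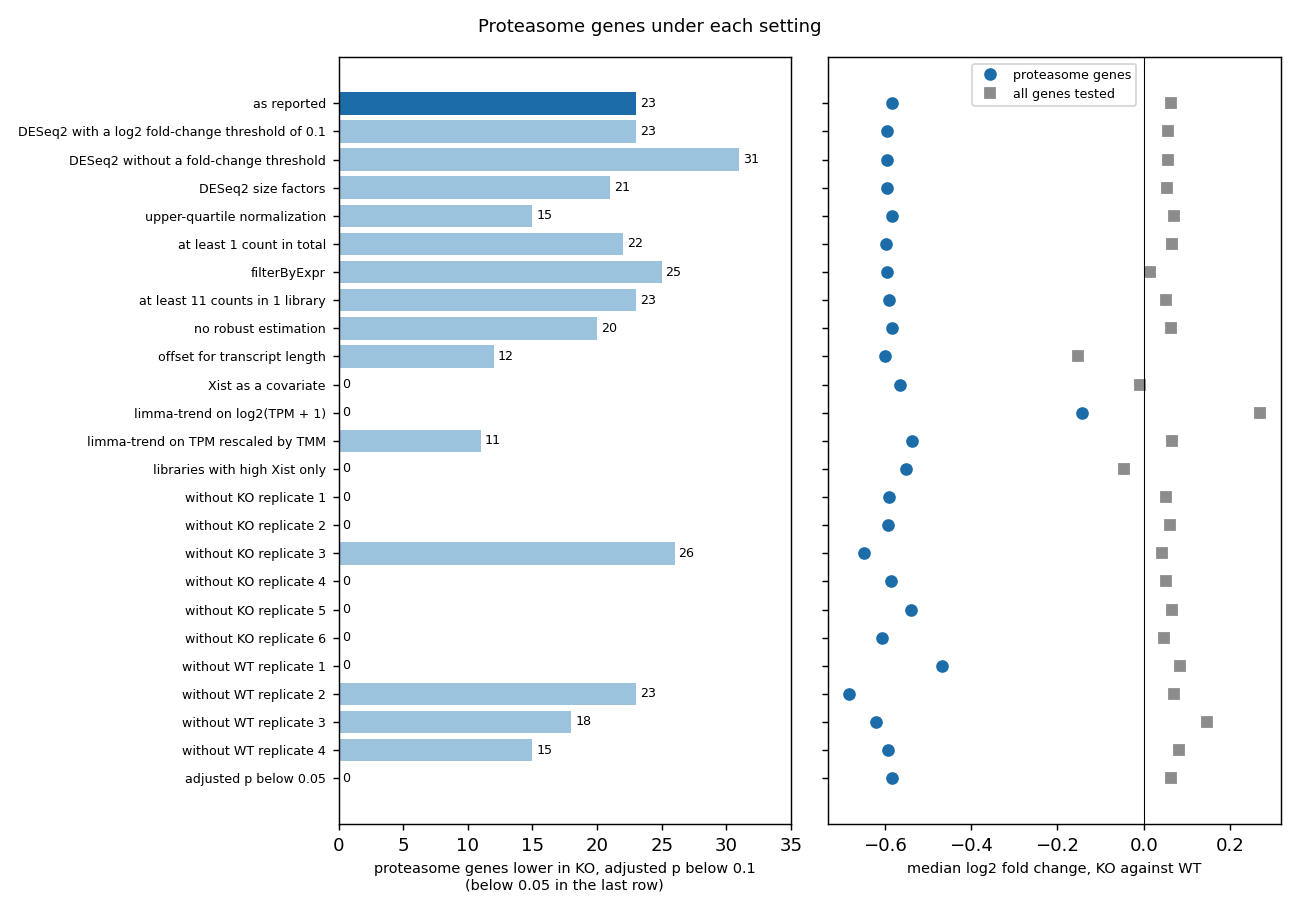
Number of proteasome genes lower in KO (left, bars) and median log2 fold change of proteasome genes and of all genes tested (right, points) under the reported fit and each alternative. The count runs from 0 to 31, while the median of the proteasome genes lies left of that of all genes in every row.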

How the data were processed

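LT-HSCs of 6 KO and 4 WT embryos at E14.5 were sorted by flow cytometry, and SmartSeq2 libraries were sequenced single-end by the authors. The authors demultiplexed reads with bcl2fastq 2.20 and quantified them with kallisto 0.44.0 on Gencode transcripts (GRCm38). The deposited count table holds counts per gene symbol. The authors also deposited estimated counts and TPM values per transcript for each library; these were summed by symbol here, and 97.5% of the matched values lay within 1 count of the count table. Replicate numbers follow accession order and pair nothing. The reads carry no molecular identifiers, so a count can include amplified copies of the same molecule.

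The 16725 genes whose counts summed to 11 or more were tested with edgeR 4.0.16 (TMM normalization, robust quasi-likelihood fit, R 4.3.3) across all genes, p-values adjusted after Benjamini and Hochberg, and the study's threshold of 0.1. DESeq2 1.42.0, limma 3.58.1 on log2(TPM + 1), other normalizations, filters, a length offset (loess span 0.3), Xist as a covariate and leaving out each library were alternatives; TPM rescaled by TMM and the fit to libraries with high Xist were chosen after seeing the data. Members and gene lists were chosen with earlier results of these data known. The 4 WT values and the lowest, median and highest KO value are given for the catalytic subunits, for the 2 members with the smallest p and the 1 with the most positive log2 fold change in each role, and for Psmc3ip; from the other lists, the genes past the threshold and those with the largest changes are named. Positions are those of Gencode vM21 (GRCm38), and promoter windows and their build are those of RefSeq; where a window and a transcript could be compared, 42 of 45 windows read in the direction of the transcript and 0 in the other. Exons of 17 members overlap another gene, and those of 8 members overlap a tested gene. A gene of the lists of related functions is not reported here.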

Additional observations from a re-analysis of the deposited data

Results flagged for a closer look

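Of 110 sets of values (each tested member in the KO and in the WT libraries), 12 held a library set apart from the rest of its group by Dixon's test, which marks about 1 in 20 groups by chance; 8 of the 12 were in KO3. All values are log2 CPM. KO3 was high among the KO libraries for Psmb1 at 8.61 (the others 8.16 to 8.30), Psmc1 at 8.60 (7.81 to 8.02), Psmc5 at 8.43 (7.67 to 7.93), Psmd1 at 8.29 (7.67 to 7.84), Psmd12 at 7.70 (6.97 to 7.11) and Psmd14 at 7.59 (7.12 to 7.28). It was low for Psmb8 at 5.09 (6.25 to 6.93). KO1 was low for Psme2 at 7.13 (7.53 to 7.71), and WT1 was high among the WT libraries for Psmd6 at 8.30 (7.40 to 7.47). The other 3 sets were pseudogenes counted in a single library of the group: Psmb5.ps in KO3 at -2.08 and in WT3 at 0.12, and Psmb6.ps in WT4 at -1.89, where libraries without a count stand at -2.96.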

How the results depend on the processing

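The count of 23 proteasome genes lower in KO stood beside 2.67% of all genes. It became 15 with upper-quartile normalization (1.89% of all genes) and 12 with the length offset (2.8%). On TPM rescaled by TMM limma gave 11 (1.32%). The count was 0 with Xist as a covariate, with limma on plain TPM, with high Xist alone and at an adjusted p below 0.05. With the Xist covariate, with high Xist alone and at 0.05 no gene of the whole table passed, whereas on plain TPM 11 genes were lower and 467 higher. The count ranged from 0 to 26 when each library was left out in turn. It was 0 in 6 of those 10 fits, where no gene of the whole table was lower either. These were the fits without KO1, KO2, KO4, KO5, KO6 or WT1. At an unadjusted p below 0.05 edgeR placed 32 to 41 members lower in all 10, beside 7.93% to 10.7% of all genes. Without WT4 the count at an adjusted p below 0.1 was 15 (2.71% of all genes). The fit without robust estimation gave 20 (2.19%), and DESeq2 without a threshold gave 31 (6.85%). No member was higher at an adjusted p below 0.1 in any fit. The median log2 fold change ran from -0.68 to -0.47 over the fits without 1 library, and moved to -0.14 on plain TPM, where the median of all genes moved to 0.27. On plain TPM the sign turned for Psmb5 (0.12), Psma4 (0.019), Psmd3 (0.22), Psme1 (0.24) and Psme3ip1 (0.11). Psme1 also turned without KO3 (0.01), without WT1 (0.0091) and without WT4 (0.052), its values without 1 library running from -0.13 to 0.052. None of these genes had passed the test. The causes were not tested. Over the named genes and alternatives, 460 values kept their sign and side of the threshold, 140 lost it and 4 gained it. No paired analysis was possible because the labels number no replicates. In the fits without 1 library the smallest adjusted p of any gene ran from 0.0221 to 0.177.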
